A study of Danio rerio with 9 samples.

Results

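The comparison described here set 3 RNA sequencing libraries of zebrafish treated with an arsenic sulfide after injection of a morpholino against sf3b1 against 3 libraries that received the morpholino without the drug. These are 6 of the 9 libraries of the series, and 17997 of the 21109 genes or transcripts in the deposited table entered the comparison: those with a value in all 9 libraries and at least 1 FPKM in 3 or more. FPKM count sequenced fragments per transcript length and library size, which makes levels comparable between genes. The groups are labelled sf3b1 MO + As2S2, sf3b1 MO and control MO, each with 3 libraries and each from trunk tissue. A morpholino (MO) is an antisense oligonucleotide that blocks the splicing or the translation of its target RNA in the embryo, and sf3b1 encodes a subunit of the U2 particle, which recognises the branch point during splicing. Both groups compared received the sf3b1 morpholino, so by their labels they differ by As2S2, while control MO, with a control morpholino, differs from both. The labels give no strain, age, dose or length of treatment, and none says that the libraries of a group came from separate clutches, so that the p-values measure the spread between these libraries only. The series was made to ask how As2S2 affects red cell maturation through the TGF-beta inhibitor smad7. The rows of sf3b1, smad7, jun, sp1, tal1, alas2 and the embryonic globins, 16 in all, were left out beforehand, since deposited values of some of them go against each other between columns, as shown for sf3b1 below.

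As2S2 is the arsenic sulfide of the mineral realgar. Trivalent arsenic binds thiol groups of proteins, and arsenicals are classic inducers of 3 protective programmes in animal cells. In the heat shock response, heat shock factor drives genes of Hsp70 and other chaperones when proteins misfold. The Nrf2 response raises enzymes of glutathione synthesis and heme breakdown, and metal-responsive transcription raises the metallothioneins. Stress also acts on translation through the integrated stress response, in which phosphorylation of eIF2alpha lowers protein synthesis while the transcription factors Atf4, Atf3 and Ddit3 are made.

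The 6 libraries without As2S2 held 21942696 to 28702980 total counts each. Counts of the As2S2 libraries were not analysed here, so their depth is unknown. The sources used here do not say whether the As2S2 columns were quantified together with the other 6, and 386 rows hold values for As2S2 only, so that a difference in quantification and an effect of As2S2 cannot be told apart from these values alone. On the log2(FPKM + 1) scale the lowest Pearson correlation across genes between replicates was 0.982. As2S2 libraries correlated at 0.924 to 0.927 with sf3b1 MO libraries. By FPKM sf3b1 stood at 170, 171 and 167 in the As2S2 libraries, at 109, 106 and 108 in sf3b1 MO and at 173, 174 and 166 in control MO. By counts it stood at 883, 882 and 844 CPM (counts scaled to library total) in sf3b1 MO, above the 537, 551 and 546 of control MO. FPKM and counts of the targeted gene thus disagree in direction between sf3b1 MO and control MO. Since a morpholino may block translation alone, the RNA level of its target does not by itself test the label. Below, sf3b1 MO means the libraries labelled so, and every direction is relative to that label. Trunk muscle genes such as mylz3, a fast myosin light chain, were abundant, at 851, 856 and 884 FPKM with As2S2 and 2117, 2164 and 2213 FPKM in sf3b1 MO. Eye and forebrain genes were present as well: the rod opsin rho stood at 68.3, 71.8 and 72.3 FPKM with As2S2 and 808, 822 and 797 FPKM in sf3b1 MO, and otx2b, a forebrain and midbrain regulator, at 152, 150.0 and 147 FPKM with As2S2 and 82.1, 84.7 and 83.9 FPKM in sf3b1 MO. The heart marker myl7 was at 0.997 FPKM or less with As2S2 and at 1.05 FPKM or less in sf3b1 MO, and the pancreatic protease prss1 was below 2 FPKM in all 6. The planned forebrain and midbrain markers did not all go the way of otx2b in FPKM. Besides otx2b, the As2S2 libraries lay all above the sf3b1 MO libraries for otx1, dlx2a, en2a and en2b. They lay all below for foxg1a and neurod6a, and the groups overlapped for emx3, dlx5a and tbr1b. Genes of the head were thus measured beside those of the trunk that the labels name. The labels do not say how much head tissue each library held. Its part in the differences of eye, lens and brain genes below was not tested.

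Most genes differed between the 2 groups, by small amounts. With As2S2, 10353 of the 17997 genes (57.5%) were called different by limma at an adjusted p under 0.05, 5427 higher (30.2%) and 4926 lower (27.4%), after each library was centred on its median. The middle of the distribution was narrow: 5% of genes lay below a log2 fold change of -0.92 and 5% above 0.97. Called changes of at least 2-fold were rarer, with 784 genes higher (4.36%) and 695 lower (3.86%), and those of at least 4-fold numbered 79 higher and 99 lower. Centring matters here, because the median log2(FPKM + 1) was 2.47 to 2.49 in the As2S2 libraries and 2.70 to 2.71 in sf3b1 MO. Without it the median gene had a log2 fold change of -0.20, and 27.9% of calls were higher, against 52.4% with it. Every log2 fold change below is on the log2(FPKM + 1) scale and relative to the median gene, so it understates the change of genes at low FPKM. Calls within about 0.2 of 0 depend on the centring, and so do some further from 0. Without it, those of gata1a (0.15, limma adjusted p = 0.22) and rpl32 (1.48, limma adjusted p = 0.063) were lost. The counts of every gene list below are to be read beside the 30.2% higher and 27.4% lower of all genes tested. Where the count of a gene list below is 0 in a direction, its count at an unadjusted limma p under 0.05 is given in brackets.

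**Figure D1:**
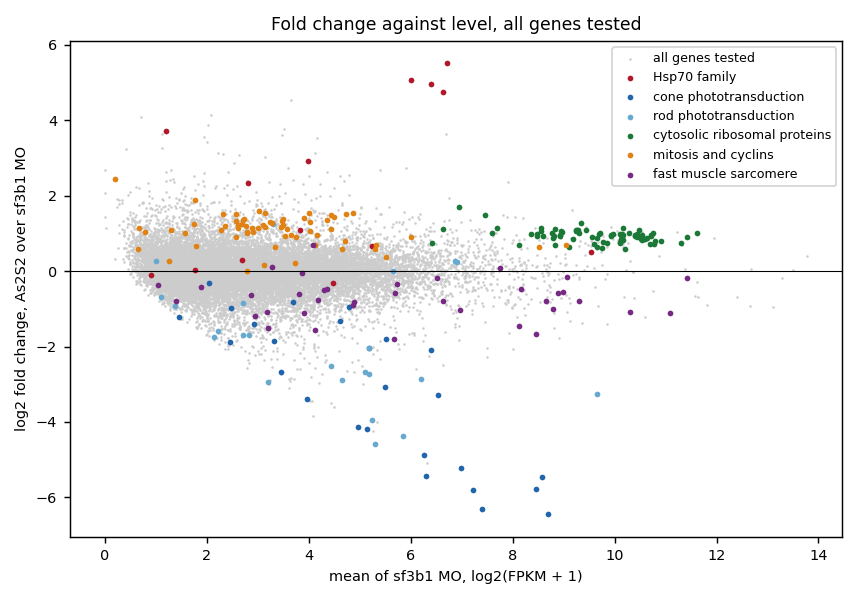
Each point is 1 of the 17997 genes tested: the x axis gives its mean over the 3 sf3b1 MO libraries in log2(FPKM + 1), the y axis the log2 fold change of sf3b1 MO + As2S2 over sf3b1 MO, relative to the median gene. Members of the Hsp70 family reach 5.51, cone genes reach -6.44, and ribosomal protein genes form a tight group near 1 at the abundant end.

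Heat shock genes gave the largest rises among called genes with a symbol, no overlap between groups and a mean of at least 5 FPKM. Of 14 tested members of the Hsp70 family, ATP-driven chaperones that bind unfolded protein segments, 10 were called higher and 1 lower, with a median log2 fold change of 1.71. The stress-inducible hsp70l had 4086, 4044 and 4120.4 FPKM with As2S2, against 101, 106 and 104 FPKM in sf3b1 MO and 15.6, 16.5 and 16.2 FPKM in control MO (log2 fold change 5.51, SE 0.03, limma adjusted p = 1.2e-13). The 3 As2S2 libraries lay close together and far above the others. Its near copies hsp70.1, hsp70.2 and hsp70.3 followed with log2 fold changes of 5.06, 4.96 and 4.74. The sources used here do not say how reads were divided between these nearly identical genes, so the family is better read as a sum: its members together took 2.22% ± 0.065 of all FPKM with As2S2 and 0.235% ± 0.0012 in sf3b1 MO (SD, n = 3). hspa8b, which was low in sf3b1 MO, rose by 3.72, and hspa1b, by name an Hsp70 gene outside the list, by 3.26. The constitutive hspa8, the housekeeping form, changed far less, with 1016, 766 and 929.8 FPKM with As2S2 and 747, 748 and 725 FPKM in sf3b1 MO, a log2 fold change of 0.50 that was -0.14 and not called under quantile normalization. The member called lower was hspa4l, of the Hsp110 type, with -0.31. Here and below, members named as the exceptions of a list were chosen after their values were seen.

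The machinery that works with Hsp70 rose beside it. Of 33 members of the list of Hsp90, J proteins and co-chaperones, 20 were higher and 4 lower (15 higher and 8 lower without centring). The J protein gene dnajb1b, whose product hands clients to Hsp70, had 244, 246 and 259 FPKM with As2S2 and 11.8, 11.8 and 11.4 FPKM in sf3b1 MO (log2 fold change 4.53, SE 0.04, limma adjusted p = 2.3e-12). dnaja, another J protein gene, rose by 3.54, and hsph1 and hspa4a, nucleotide exchange factors of the Hsp110 type, rose by 3.43 and 2.93 (hspa4a was chosen after its values were seen). Among Hsp90 genes, hsp90aa1.2 had 1131, 1099.8 and 1097 FPKM with As2S2, against 103, 103 and 103 FPKM in sf3b1 MO, a log2 fold change of 3.64. Its neighbour in name hsp90aa1.1, which serves myosin folding in zebrafish muscle, rose by 2.73. The abundant hsp90ab1 rose by 0.82, a call lost under quantile normalization (limma adjusted p = 0.17). The immunophilin fkbp5, an Hsp90 co-chaperone of the glucocorticoid receptor and a glucocorticoid target, went the other way, at 5.77, 5.70 and 6.96 FPKM with As2S2 and 28.4, 26.3 and 28.4 FPKM in sf3b1 MO (log2 fold change -1.78, SE 0.07, limma adjusted p = 5.6e-08).

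Other chaperone classes rose less uniformly. Among 10 small heat shock proteins and mitochondrial chaperonins, 7 were higher and 2 lower. hspb1, an ATP-independent holdase, had 113, 117 and 112 FPKM with As2S2, against 10.2, 9.38 and 10.7 FPKM in sf3b1 MO (log2 fold change 3.60, SE 0.08, limma adjusted p = 1.4e-09). serpinh1b, the collagen chaperone Hsp47, rose by 2.55 and hspb9 by 1.44, while hspb6 had -0.90 and hspb15 fell to 2.89, 3.90 and 2.58 FPKM with As2S2, against 7.48, 8.85 and 9.40 FPKM in sf3b1 MO. All 9 rows of the cytosolic chaperonin CCT, the ring that folds actin and tubulin, were higher, between 0.34 and 0.95, with cct2 listed in 2 rows. tcp1, a CCT subunit, had 223, 215 and 218 FPKM with As2S2 and 153, 154 and 141 FPKM in sf3b1 MO.

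Genes for protein breakdown did not move as 1 group. In the list of BAG proteins, ubiquitin and aggregate clearance, 12 of 37 were higher and 16 lower, shares close to those of all genes for the rises and above them for the falls. bag3, which links Hsp70 to autophagy, had 18.3, 20.6 and 18.5 FPKM with As2S2, against 3.15, 3.13 and 2.29 FPKM in sf3b1 MO (log2 fold change 2.62, SE 0.10, limma adjusted p = 5.4e-08). The autophagy receptor gene sqstm1 rose by 0.96 and the polyubiquitin gene ubb by 2.52, but the deposited FPKM and counts of ubb disagree by -0.50 on the log2 scale for sf3b1 MO over control MO, so its size is uncertain. The more abundant polyubiquitin gene ubc was slightly lower, with a log2 fold change of -0.11. Of 45 proteasome subunits and assembly factors, 10 were higher and 17 lower, against 2 higher and 31 lower without centring and 3 higher and 21 lower under quantile normalization. None passed limma's test against a 1.5-fold change. The largest were psme4b, a proteasome activator, with -0.62, and psmg2, an assembly chaperone, with 0.59.

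Listed targets of the integrated stress response were higher in some cases and not in others. Activity of the response itself was not tested. Of 34 targets, 22 were higher and 2 lower (17 higher and 7 lower without centring), with a median log2 fold change of 0.45. ppp1r15a, which directs a phosphatase to eIF2alpha and ends the response, had 341, 339 and 343 FPKM with As2S2, 61.3, 57.1 and 58.8 FPKM in sf3b1 MO and 27.7, 30.3 and 30.7 FPKM in control MO (log2 fold change 2.74, SE 0.04, limma adjusted p = 1.3e-10). The transcription factor genes atf3 and cebpb rose by 2.36 and 1.46, and the translation repressor gene eif4ebp3l by 1.31. atf4a itself, whose control is largely at translation, rose by 0.40, a call lost under quantile normalization (limma adjusted p = 0.44). Further members were named after their values were seen. ddit3 had 23.05, 23.8 and 23.1 FPKM with As2S2 and 24.9, 21.3 and 25.5 FPKM in sf3b1 MO, a log2 fold change of 0.20 that turned to -0.03 without centring. Its call was also lost without any 1 of the 3 As2S2 libraries or without sf3b1 MO replicate 2. The asparagine synthetase gene asns was not called, with 6.12, 5.89 and 5.78 FPKM with As2S2 and 7.20, 5.88 and 7.64 FPKM in sf3b1 MO. chac1, which degrades glutathione, had 41.8, 57.9 and 141 FPKM with As2S2 and 43.1, 43.2 and 47.9 FPKM in sf3b1 MO. Here 1 As2S2 library stood far above the other 2, and the gene was not called (limma adjusted p = 0.059). Its log2 fold change was 0.86, and without that library it was 0.36 (limma adjusted p = 0.040), while without As2S2 replicate 1 it was 1.23 (limma adjusted p = 0.0079). Of 17 aminoacyl-tRNA synthetase genes, 10 were higher and 3 lower (7 higher and 5 lower without centring), led by iars1, the isoleucine enzyme, with 1.11. Their median of 0.29 was 0.06 without centring. In the endoplasmic reticulum list 18 of 35 were higher and 5 lower (8 higher and 11 lower without centring), with a median of 0.20 that turned to -0.03 without centring. Its leading member hspa5, the Hsp70 of that compartment, had 309, 311 and 317 FPKM with As2S2 and 143, 137 and 146 FPKM in sf3b1 MO (log2 fold change 1.36, SE 0.03, limma adjusted p = 3.6e-09).

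Among 27 p53 targets, genes of DNA damage and growth arrest, 17 were higher and 3 lower. cdkn1a, the p21 inhibitor of cyclin-dependent kinases, had 11.1, 12.9 and 12.00 FPKM with As2S2, against 2.43, 2.30 and 2.52 FPKM in sf3b1 MO and 5.75, 4.41 and 4.40 FPKM in control MO (log2 fold change 2.15, SE 0.10, limma adjusted p = 2.4e-07). mdm2, a ubiquitin ligase gene, rose by 1.51, the stress gene gadd45ba by 1.63, and ccng1, the most abundant member, by 1.33. Lower members included gadd45ga and rrm2b, with -0.85 and -0.56.

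Of 35 AP-1 and immediate early genes, those switched on within minutes of a stimulus, 23 were higher and 5 lower (20 higher and 8 lower without centring). fosab, an AP-1 subunit, had 75.9, 72.3 and 74.5 FPKM with As2S2 and 22.9, 24.9 and 24.97 FPKM in sf3b1 MO (log2 fold change 1.80, SE 0.05, limma adjusted p = 6.4e-09). mcl1b, a survival factor of the Bcl-2 family, rose by 1.88, the AP-1 gene fosl1a by 1.62 and the MAP kinase phosphatase gene dusp1 by 1.53. egr1, a growth factor response gene named after its values were seen, fell to 5.19, 5.53 and 6.49 FPKM with As2S2, against 17.1, 14.1 and 16.1 FPKM in sf3b1 MO. Among 18 inflammatory genes 9 were higher and 0 (1) lower, against 5 higher and 4 lower without centring. The cytokine inhibitor socs3a rose by 0.92 and the chemokine gene cxcl18b by 0.66. Of 15 markers of neutrophils and macrophages 1 was higher, the receptor subunit gene fcer1gl with 0.35 (not called without centring), and 1 lower, the neutrophil protease gene npsn with -0.66 (0 higher and 5 lower without centring).

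The list of Nrf2 and glutathione genes, which holds Nrf2 targets that arsenic is known to raise beside other redox genes, was not higher as a whole. Of 36 Nrf2 and glutathione genes 7 were higher and 13 lower, a share of rises below that of all genes. sod1, the cytosolic superoxide dismutase, fell to 32.4, 24.7 and 30.3 FPKM with As2S2, against 67.8, 73.2 and 73.8 FPKM in sf3b1 MO (log2 fold change -1.05, SE 0.09, limma adjusted p = 8.1e-06). The mitochondrial peroxiredoxin gene prdx3 fell by 1.23 on the log2 scale, and the pentose phosphate enzymes pgd and tkta, which supply NADPH, fell by 0.96 and 0.92. Canonical Nrf2 targets, named after their values were seen, were mixed. The heme oxygenase gene hmox1a was low but higher, with 2.30, 1.60 and 2.58 FPKM with As2S2 and 0.956, 0.645 and 0.946 FPKM in sf3b1 MO. gclc and gclm, the subunits of the enzyme that limits glutathione synthesis, were slightly lower, with log2 fold changes of -0.24 and -0.25, where gclc was no longer called without sf3b1 MO replicate 1 or 3 (-0.19 and -0.23) or without As2S2 replicate 3 (-0.20). nqo1, a quinone reductase, was lower with -0.64.

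In the list of metal binding and arsenic handling 4 of 15 were higher and 6 lower, and the share of rises was near that of all genes. The metallothionein gene mt2, a metal and stress marker, had 10.9, 13.8 and 9.52 FPKM with As2S2, 45.2, 27.2 and 33.7 FPKM in sf3b1 MO and 8.05, 8.52 and 12.5 FPKM in control MO (log2 fold change -1.31, SE 0.21, limma adjusted p = 0.00053). All 3 As2S2 libraries lay below the 3 sf3b1 MO libraries and overlapped with control MO. aqp9b, of the aquaglyceroporins through which arsenite enters cells in mammals, had 1.53, 1.69 and 1.39 FPKM with As2S2 and 17.0, 17.0 and 15.6 FPKM in sf3b1 MO (log2 fold change -2.56, SE 0.07, limma adjusted p = 5.6e-09). The transporter gene abcc5 was lower with -0.29, while the zinc importer gene slc39a10 rose by 0.63.

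**Figure D2:**
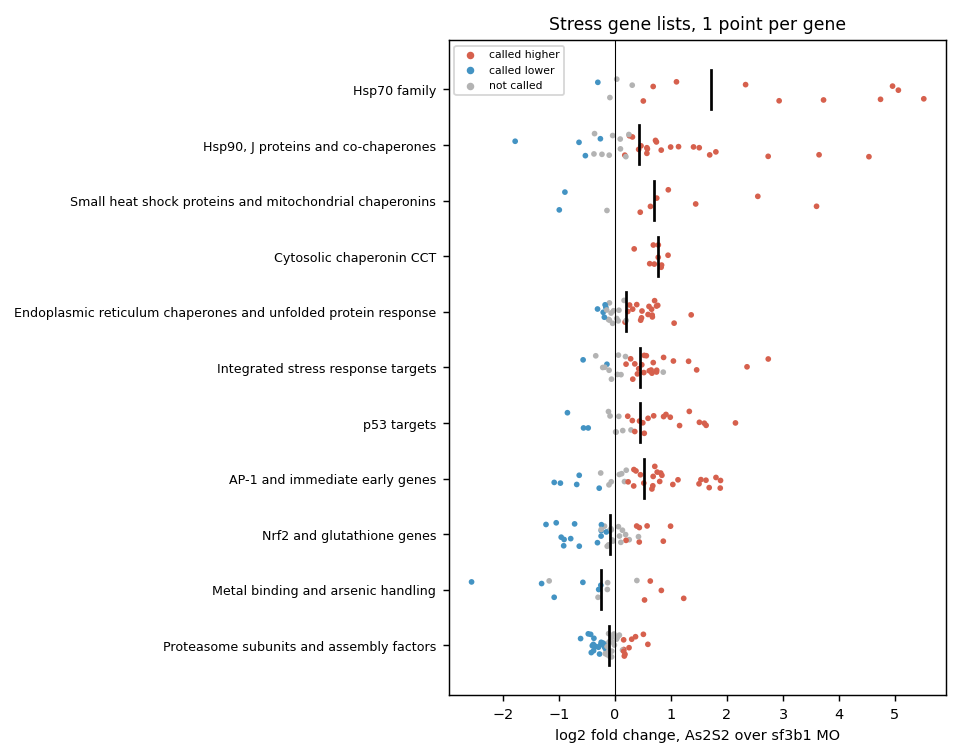
Each point is a tested member of the named list, at its log2 fold change of sf3b1 MO + As2S2 over sf3b1 MO, red where called higher, blue where called lower and grey where not called; black bars mark list medians. The Hsp70, Hsp90 and small heat shock protein lists extend far to the right, while the Nrf2, metal and proteasome lists have medians below 0.

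Ribosomal protein genes rose as a block. All 75 tested members were called higher, with log2 fold changes from 0.58 to 1.71 and a median of 0.95, beside a median of 0.02 over all genes. rplp0, of the ribosomal stalk and the most abundant member, had 5226, 5435 and 5333 FPKM with As2S2, 3273, 3286 and 2799 FPKM in sf3b1 MO and 2715, 2719 and 2770.5 FPKM in control MO (log2 fold change 1.003, SE 0.06, limma adjusted p = 5.5e-07). rpl10 had 418, 438 and 410.3 FPKM with As2S2 and 174, 183 and 170.0 FPKM in sf3b1 MO (log2 fold change 1.49, SE 0.04, limma adjusted p = 1.2e-08), rps28 rose by 1.16, and rpl27 by 1.28, which was 0.55 and not called under quantile normalization (limma adjusted p = 0.11). The largest value, 1.71 for rpl32, rests on 1 library: it had 248, 283 and 284 FPKM with As2S2 and 31.5, 176 and 161 FPKM in sf3b1 MO, and without that sf3b1 MO library it was 0.91 and not called (limma adjusted p = 0.079). Its call was lost, too, without any 1 of the As2S2 libraries, at 1.67 to 1.77. Leaving out any 1 library left 72 to 74 of the 75 called higher, and quantile normalization 58 with a median of 0.30. Together these genes took 22.2% ± 0.59 of all FPKM with As2S2, 14.3% ± 0.36 in sf3b1 MO and 11.6% ± 0.19 in control MO (SD, n = 3). FPKM are shares of a library, so such a gain lowers the share left to all other genes, and the lower median of the As2S2 libraries moves with it. Its part in that median was not tested. These genes are short. Among the shortest 10% of genes, which include 61 of the 75, the median log2 fold change was -0.05, and over all 10 classes of length it lay between -0.05 and 0.05. Lengths were not annotated but inferred from counts and FPKM of the control MO and sf3b1 MO libraries. A part of length in the rise was not tested.

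Translation factors moved the same way as the ribosome. Of 47 initiation and elongation factor genes 34 were higher and 5 lower (25 higher and 10 lower without centring). The elongation factor gene eef1a1l1 had 6214, 6145 and 6223 FPKM with As2S2 and 4000.3, 3960.3 and 3949.5 FPKM in sf3b1 MO (log2 fold change 0.87, SE 0.02, limma adjusted p = 2.9e-09). Among called genes with a symbol it had the largest gain in FPKM after hsp70l. eef2b rose by 1.05, eef1b2 by 1.01 and eif2s3, a subunit of eIF2, by 1.05. eif1axb, for an initiation factor of start-site choice, fell to 26.7, 29.4 and 28.2 FPKM with As2S2, against 67.9, 71.7 and 65.4 FPKM in sf3b1 MO. Ribosome biogenesis genes had 42 of 70 higher, 4 lower and a median of 0.26, against 13 higher and 10 lower with a median of 0.04 without centring. Among them the nucleolar helicase gene ddx21 rose by 0.98 and nop53 by 0.98. The spliceosome list, which bears on the morpholino's target, had 54 of 79 higher and 4 lower, with a median of 0.27, against 28 higher and 17 lower with a median of 0.04 without centring. hnrnpa0a, for an RNA-binding protein of the hnRNP type, rose by 1.28, and srsf7b, a splicing factor gene, fell by 0.77 on the log2 scale.

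Genes of mitosis rose. Of 65 genes of mitosis and cyclins 62 were higher and 0 (0) lower, with a median of 1.14, against 33 of 54 higher, 2 lower and a median of 0.37 for DNA replication. Without centring the replication list had 16 higher and 7 lower with a median of 0.14. The 2 medians were not tested against each other. nusap1, a spindle protein, had 72.9, 70.1 and 70.2 FPKM with As2S2, 26.7, 29.8 and 27.8 FPKM in sf3b1 MO and 32.8, 33.8 and 35.2 FPKM in control MO (log2 fold change 1.54, SE 0.05, limma adjusted p = 1.3e-08). The spindle checkpoint kinase gene bub1 rose by 1.58, the kinesin gene kifc1 by 1.55 and the chromokinesin gene kif4 by 1.88, whose deposited FPKM and counts disagree by -0.41 on the log2 scale for sf3b1 MO over control MO. In replication, gins3, of the helicase complex, rose by 1.05, e2f8, an E2F factor, by 0.96 and mcm7, the most abundant member, by 0.43. Bulk RNA cannot tell more cells in division from more RNA per dividing cell, and the same holds for fewer cells of a type and less RNA per cell in every group below.

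Chromatin packaging genes held both large and small changes. Of 26 members 16 were higher and 5 lower, against 12 higher and 9 lower without centring and 11 higher and 9 lower under quantile normalization. hmga2, an architectural factor of undifferentiated cells, had 12.4, 13.03 and 10.7 FPKM with As2S2 and 3.37, 2.67 and 2.28 FPKM in sf3b1 MO (log2 fold change 2.02, SE 0.13, limma adjusted p = 1.4e-06). hmga1a, a related architectural factor, rose by 0.78, a call lost under quantile normalization (limma adjusted p = 0.071). The libraries were made after polyA selection, which recovers few of the replication histone transcripts, since these lack a polyA tail.

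**Figure D3:**
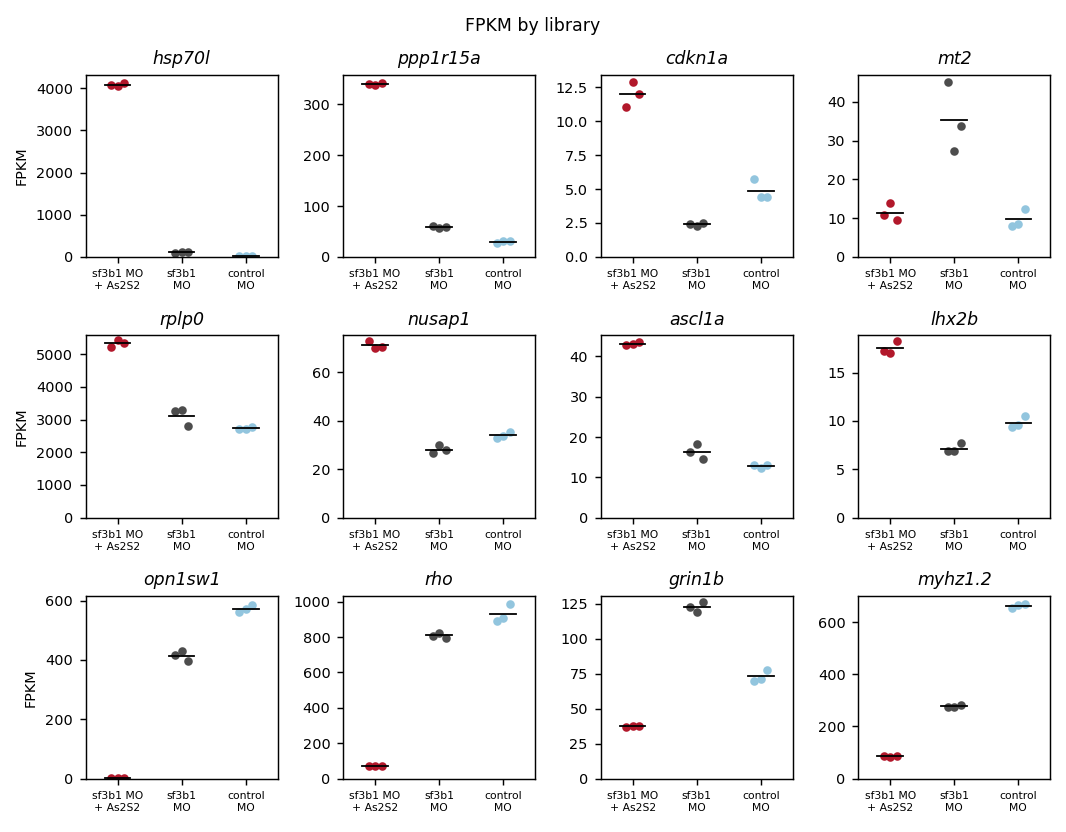
FPKM of 12 genes in every library, with the groups from left to right sf3b1 MO + As2S2, sf3b1 MO and control MO; points are libraries, lines are means of 3, and each y axis starts at 0. The 12 genes were picked from those called different, and in each the As2S2 libraries do not overlap with the sf3b1 MO libraries. Over all 17997 genes tested, 19.0% had the As2S2 libraries all above and 46.9% all below the sf3b1 MO libraries.

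In the nervous system most progenitor genes were higher and most synaptic vesicle and receptor genes lower, while other neuronal and glial genes were mixed. Of 32 neural progenitor genes, 31 were higher and 0 (0) lower, with a median of 0.84. The proneural factor gene ascl1a had 42.8, 43.1 and 43.7 FPKM with As2S2, 16.2, 18.3 and 14.5 FPKM in sf3b1 MO and 13.2, 12.2 and 13.1 FPKM in control MO (log2 fold change 1.58, SE 0.07, limma adjusted p = 1.8e-07). neurog1, another proneural factor, had 64.0, 64.9 and 59.3 FPKM with As2S2 and 18.2, 17.9 and 17.1 FPKM in sf3b1 MO (log2 fold change 1.99, SE 0.05, limma adjusted p = 4e-09). It is counted not in this list but in that of neuronal cytoskeleton and identity below. The receptor genes notch1a and notch1b, which keep progenitors from differentiating, rose by 1.41 and 1.54, and sox11b, the most abundant member, by 1.10. notch3 had 1.75, but its deposited FPKM and counts disagree by 0.74 on the log2 scale for sf3b1 MO over control MO, so that value is uncertain.

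Genes of synapses fell. Of 34 synaptic vesicle genes 30 were lower and 3 higher, with a median of -0.61. The synaptotagmin gene syt5b, a calcium sensor of release, had 60.3, 58.5 and 55.3 FPKM with As2S2 and 174, 174 and 178 FPKM in sf3b1 MO (log2 fold change -1.35, SE 0.03, limma adjusted p = 3.6e-09). syt5a fell by 2.73 on the log2 scale, the vesicle protein gene sypb by 1.23, and cplx4a, a complexin of ribbon synapses in the mouse retina, by 2.51. stxbp1a, the most abundant, had 163, 167 and 162 FPKM with As2S2 and 257, 259.8 and 248 FPKM in sf3b1 MO, a smaller fall. The 3 higher members were syt2a with 1.40, the glutamate transporter gene slc17a6a with 0.56 and the vesicle SNARE gene vamp2 with 0.30, a call lost without centring. Of 40 neurotransmitter receptor genes 32 were lower and 1 higher, with a median of -0.75. grin1b, the obligatory NMDA receptor subunit, had 36.9, 37.6 and 37.4 FPKM with As2S2, 123, 119 and 126 FPKM in sf3b1 MO and 69.9, 71.4 and 77.5 FPKM in control MO (log2 fold change -1.46, SE 0.04, limma adjusted p = 7.5e-09). The AMPA receptor genes gria3a and gria4a fell by 1.83 and 1.68 on the log2 scale. For gria3a sf3b1 MO stood above both others, with 28.6, 29.0 and 28.8 FPKM with As2S2, 129.9, 113 and 126 FPKM in sf3b1 MO and 67.3, 69.8 and 71.0 FPKM in control MO.

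Neuronal structure and glia were mixed. Of 39 genes of neuronal cytoskeleton and identity 14 were higher and 18 lower (7 higher and 23 lower without centring). Its rises included proneural factor genes: neurog1 and ascl1a, given above with the progenitors, and ascl1b, which rose by 1.31. The higher count is therefore not one of mature neuronal genes only. slc18a3a, the acetylcholine transporter of cholinergic vesicles, fell by 1.09 on the log2 scale. The abundant tubulin gene tuba1a changed little, with -0.09. Of 29 glia and myelin genes 14 were higher and 10 lower, with a median of 0.13 that was -0.10 without centring and -0.05 without sf3b1 MO replicate 2. her4.1, a Notch target of radial glia, had 80.0, 86.7 and 98.2 FPKM with As2S2 and 30.6, 34.2 and 30.6 FPKM in sf3b1 MO (log2 fold change 1.67, SE 0.07, limma adjusted p = 1.3e-07), and olig2, a factor of oligodendrocyte and motor neuron progenitors, rose by 1.496. The myelin gene plp1b fell to 1.87, 2.20 and 1.82 FPKM with As2S2, against 7.37, 8.56 and 8.25 FPKM in sf3b1 MO, and the lipid-binding protein gene fabp7a of radial glia, the most abundant member, fell to 663, 701 and 705 FPKM, against 1323, 1349.7 and 1309.5 FPKM in sf3b1 MO. Of 25 neuroendocrine genes 2 were higher and 13 lower, among them oxt, the oxytocin-type hormone, with -0.98 and crhb, the corticotropin-releasing hormone, with -1.19.

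The largest falls among called genes with a symbol, no overlap between groups and a mean of at least 5 FPKM were in photoreceptors. Of 26 cone phototransduction genes 25 were lower and 0 (0) higher, with a median of -2.88, and of 23 rod genes 18 were lower and 3 higher, with a median of -1.75. The ultraviolet opsin gene opn1sw1 had 3.28, 2.79 and 3.21 FPKM with As2S2, 416, 430.0 and 396 FPKM in sf3b1 MO and 560.3, 572 and 585 FPKM in control MO (log2 fold change -6.44, SE 0.05, limma adjusted p = 1.3e-12). Green, red and blue cone opsins followed, opn1mw1 with -6.31, opn1lw2 with -5.45 and opn1sw2 with -4.89. The cone transducin genes gnb3b, gngt2b and gnat2 had log2 fold changes of -5.80, -5.77 and -5.21, and the arrestin genes arr3a and arr3b, which end the opsin signal, -5.42 and -4.19. The phosphodiesterase gene pde6c, the cone effector, fell to 0.488, 0.553 and 0.576 FPKM with As2S2, against 30.2, 32.1 and 28.6 FPKM in sf3b1 MO. Disc rim genes prph2a and prph2b had -4.59 and -3.94, rcvrn3, a recoverin, -4.36 and pdcb, a phosducin, -4.23. The rod opsin gene rho, with the values given above, had -3.27. The 3 rod genes called higher were the widely used G protein genes gnb1a and gnb1b, with 0.28 and 0.23 (neither called without centring, and gnb1a not without sf3b1 MO replicate 1 or 3, at 0.25 and 0.24), and nr2e3, a regulator of rod identity, with 1.25. Several of these genes have close copies, so single paralogs are less certain than the lists.

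Regulators of the retina were higher more often than lower. Of 24 eye field and retinal regulators 15 were higher and 2 lower (12 higher and 5 lower without centring). The eye field gene lhx2b had 17.2, 17.0 and 18.3 FPKM with As2S2 and 6.91, 6.85 and 7.67 FPKM in sf3b1 MO (log2 fold change 1.41, SE 0.06, limma adjusted p = 1.5e-07). atoh7, which starts ganglion cell formation, had 26.4, 23.7 and 25.4 FPKM with As2S2 and 9.42, 11.1 and 6.27 FPKM in sf3b1 MO (log2 fold change 1.66, SE 0.17, limma adjusted p = 3.8e-05). Both prdm1a and otx2a rose, by 1.41 and 1.38. The 2 lower members were thrb, the thyroid hormone receptor needed for red cones in zebrafish, with -0.84, and the eye field gene rx1 with -0.42. neurod1, the most abundant member, was not called, with -0.03, but was called lower without centring (-0.26), under quantile normalization (-0.18) and with a pseudocount of 4 (-0.10). crx, a photoreceptor activator named after its values were seen, had 159, 151 and 155 FPKM with As2S2 and 191, 182 and 199 FPKM in sf3b1 MO and was not called (-0.07), but it was called lower without sf3b1 MO replicate 2 (-0.10) and without centring (-0.30). In the pigment epithelium and visual cycle list 8 of 22 were higher and 10 lower (5 higher and 11 lower without centring). rpe65a, the isomerase of the visual cycle, fell to 11.7, 12.3 and 12.1 FPKM with As2S2, against 57.3, 56.2 and 59.4 FPKM in sf3b1 MO (log2 fold change -1.94, SE 0.04, limma adjusted p = 7.4e-10), and rbp3, the retinoid carrier between photoreceptors and epithelium, fell by 2.36 on the log2 scale, while the melanin gene tyrp1b was not called, with 0.06.

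Lens genes fell almost without exception. Of 37 crystallin and lens genes 35 were lower and 0 (0) higher, with a median of -0.74. crybb1, the most abundant, had 627, 605 and 622 FPKM with As2S2, 1143, 1129.5 and 1199.7 FPKM in sf3b1 MO and 1565, 1562 and 1588 FPKM in control MO (log2 fold change -0.68, SE 0.03, limma adjusted p = 9.8e-08). The fish gamma-crystallin genes crygm2d2 and crygm2d1, of a family of near copies, fell by 1.76 and 1.37 on the log2 scale. mipb, a water channel of lens fibres, fell by 1.70 and lim2.1, a fibre membrane protein, by 2.86. In 1 As2S2 library lim2.1 was listed at 0. As a share of all FPKM the list held 0.857% ± 0.014 with As2S2, 1.88% ± 0.035 in sf3b1 MO and 2.58% ± 0.03 in control MO (SD, n = 3).

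**Figure D4:**
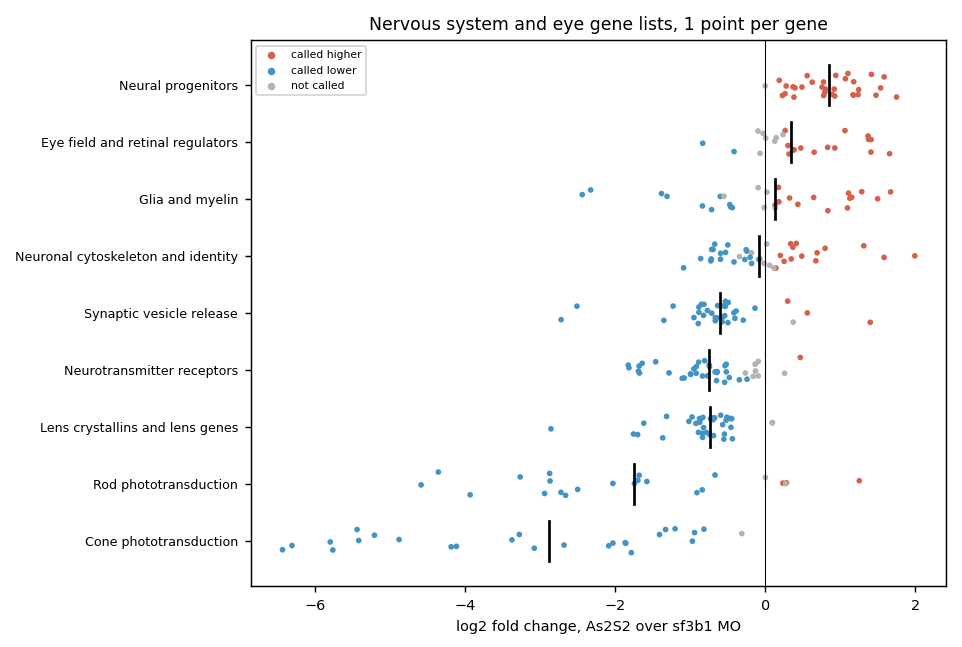
Each point is a tested member of the named list, at its log2 fold change of sf3b1 MO + As2S2 over sf3b1 MO, red where called higher, blue where called lower and grey where not called; black bars mark list medians. Most progenitor and retinal regulator genes lie right of 0, and most synapse, receptor, lens and photoreceptor genes left of it.

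Contractile genes of fast muscle fell as well. Of 37 fast sarcomere genes 32 were lower and 1 higher, with a median of -0.75. The myosin heavy chain gene myhz1.2 had 86.2, 84.0 and 87.4 FPKM with As2S2, 275, 275 and 281 FPKM in sf3b1 MO and 654, 666 and 669.9 FPKM in control MO (log2 fold change -1.45, SE 0.02, limma adjusted p = 3.4e-10). Troponin genes tnni2b.2 and tnnc2.2 fell by 1.80 and 1.66 on the log2 scale, and the myosin gene myhc4 by 1.56, while the abundant actin gene actc1b fell by 0.17. The 1 member called higher was tcap, for the Z-disc cap of titin, with 0.70. Of 35 genes of muscle calcium and energy 20 were lower and 3 higher. The calcium buffer gene pvalb1 had 2788, 2851 and 2965 FPKM with As2S2, 5424, 5560.4 and 5328 FPKM in sf3b1 MO and 9237, 9015 and 9029 FPKM in control MO, and pvalb2 fell by 1.23 on the log2 scale. ckmt2a, the mitochondrial creatine kinase, fell to 11.4, 10.2 and 9.34 FPKM with As2S2, against 53.8, 57.9 and 50.1 FPKM in sf3b1 MO (log2 fold change -2.05, SE 0.07, limma adjusted p = 2.7e-08). Slow muscle had 5 of 18 lower and 2 higher, a share of falls near the 27.4% of all genes. The number lower was 8 without sf3b1 MO replicate 3 and 12 without centring. smyhc1, the slow myosin, had -0.67. Myogenic regulators had 9 of 26 higher and 8 lower (5 lower without sf3b1 MO replicate 1), near the 30.2% and 27.4% of all genes. Among them pax7b, of muscle progenitors, had 0.89 and mef2ca, a differentiation factor, -0.55. Of 9 heart genes, which were low in these libraries, 1 was higher and 3 lower (0 higher and 6 lower without centring). The share lower was near the 27.4% of all genes.

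Skeletal and matrix genes did not move as 1 group. In the cartilage and bone list 4 of 24 were higher and 13 lower. The master regulators sox9a and sox9b rose by 1.59 and 0.93, while the matrix gene matn1 fell to 12.7, 14.7 and 13.2 FPKM with As2S2, against 50.8, 51.2 and 51.7 FPKM in sf3b1 MO (log2 fold change -1.62, SE 0.06, limma adjusted p = 4.1e-08). Of 32 collagen genes 14 were higher and 8 lower (9 higher and 12 lower without centring), and their median of 0.22 was -0.01 without centring. The share of collagen genes lower was near the 27.4% of all genes. plod1a, a collagen lysine hydroxylase, rose by 0.95, col2a1b by 0.70 and col9a1b by 0.58. In the fin fold and posterior patterning list 8 of 23 were higher and 9 lower, beside 30.2% and 27.4% of all genes. The homeobox gene msx3 had 1.03 and the fin fibre gene and1 -0.73. Anterior Hox genes had 10 of 24 higher and 5 lower (6 higher and 11 lower without centring), hoxb6b at 0.91 and hoxc6b, hoxc6a and hoxc8a at -0.80, -0.75 and -0.71.

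Epidermal genes rose. Of 42 keratin and epidermis genes 25 were higher and 2 lower (18 higher and 5 lower without centring), with a median of 0.38. The periderm keratin genes cyt1 and cyt1l, similar in name and level, both rose: cyt1 had 551, 548 and 559.6 FPKM with As2S2, 233, 239 and 239 FPKM in sf3b1 MO and 889.5, 903 and 891 FPKM in control MO. cyt1l had 538, 539 and 549 FPKM with As2S2, 221, 230.3 and 220.1 FPKM in sf3b1 MO and 1021, 1029.9 and 1042 FPKM in control MO. The As2S2 libraries thus lay between the other 2 groups, with log2 fold changes over sf3b1 MO of 1.44 and 1.499. krt4, another surface keratin, rose by 1.31 and anxa1c, an annexin, by 1.30. The planned epidermis marker krt5 overlapped between the groups, with 44.2, 43.7 and 55.7 FPKM with As2S2 and 48.9, 35.8 and 46.4 FPKM in sf3b1 MO. Claudin and tight junction genes had 15 of 24 higher and 3 lower (7 higher and 5 lower without centring). cldn5a, a barrier claudin of brain and vessels, had 12.4, 14.4 and 14.9 FPKM with As2S2 and 3.34, 2.25 and 2.11 FPKM in sf3b1 MO (log2 fold change 2.30, SE 0.13, limma adjusted p = 5.1e-07). Pigment cell genes had 12 of 19 higher and 2 lower, with tyr, the first enzyme of melanin synthesis, at 0.85. Their median of 0.21 was -0.02 without centring. Of 13 ionocyte and mucous cell genes 2 were higher and 7 lower. Of 10 hair cell genes 2 were higher and 4 lower (2 higher and 7 lower without centring), beside 30.2% and 27.4% of all genes.

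Apolipoprotein genes, which carry lipid from yolk and liver, were mostly low and rose. Of 16 members 11 were higher and 1 lower, with a median of 1.29. apoa2 had 78.6, 77.3 and 77.4 FPKM with As2S2, 15.6, 13.6 and 16.0 FPKM in sf3b1 MO and 9.69, 11.2 and 10.9 FPKM in control MO (log2 fold change 2.52, SE 0.07, limma adjusted p = 4.8e-09). apoea rose by 2.88, apoa1a by 2.31 and the fatty acid carrier fabp1b.1 by 2.52, while apoeb, the most abundant, was not called, with 0.07. The apolipoprotein B gene apobb.1, made by the yolk syncytial layer of larvae, had 3.67, 3.59 and 3.54 FPKM with As2S2 and 1.05, 1.18 and 1.30 FPKM in sf3b1 MO. Liver genes had 10 of 16 higher and 6 lower, with a median of 0.73. With a mean of at least 5 FPKM over the 9 libraries, 2 were higher and 2 lower. rbp4, the retinol carrier of blood, had 18.9, 15.7 and 16.4 FPKM with As2S2 and 37.8, 41.5 and 35.5 FPKM in sf3b1 MO, a fall of 0.90 on the log2 scale. The planned liver markers fgb and fga were higher in FPKM. fgb had 7.02, 6.97 and 6.82 FPKM with As2S2 and 2.24, 1.95 and 1.92 FPKM in sf3b1 MO. fga had 3.84, 2.83 and 2.98 against 1.49, 1.54 and 2.47 FPKM. fabp10a, another, had no As2S2 values. Transferrin, tfa, had 9.17, 8.16 and 8.41 FPKM with As2S2 and 7.86, 4.19 and 2.01 FPKM in sf3b1 MO, where the sf3b1 MO libraries differed widely. In the list of exocrine pancreas and gut enzymes 1 of 8 was higher and 2 were lower, beside 30.2% and 27.4% of all genes. The higher member was ptf1a with 1.35, a factor also used by neurons of the hindbrain and retina. Kidney and thyroid genes had 4 of 13 higher and 5 lower (3 higher and 8 lower without centring), beside 30.2% and 27.4% of all genes.

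The TGF-beta family bears on the question of the series. Of 48 components of TGF-beta and BMP signalling 27 were higher and 7 lower (20 higher and 11 lower without centring), with a median of 0.37. The activin receptor gene acvr2ba had 11.6, 11.5 and 13.6 FPKM with As2S2, 1.44, 2.09 and 0.876 FPKM in sf3b1 MO and 3.33, 2.14 and 2.04 FPKM in control MO (log2 fold change 2.67, SE 0.19, limma adjusted p = 3.5e-06). smad6a, an inhibitory Smad of the BMP branch, rose by 1.37, the common mediator smad4a by 1.18 and inhbb, an activin subunit, by 1.10. id1, a BMP target and the most abundant member, rose by 0.43. Of 21 TGF-beta targets 10 were higher and 2 lower (7 higher and 6 lower without centring), with a median of 0.19 that was -0.04 without centring. Besides cdkn1a, which is also a p53 target, ccn1 rose by 1.06 and tgfbi by 0.51.

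Red cell genes outside the rows left out did not move together. Of 46 members 12 were higher and 18 lower (8 higher and 25 lower without centring), beside 30.2% and 27.4% of all genes, with a median of -0.07. The ferritin genes of the fish-specific group, fthl31 and fthl28, were lower. fthl31 had 25.6, 29.6 and 30.5 FPKM with As2S2, 66.8, 71.4 and 57.7 FPKM in sf3b1 MO and 16.2, 14.6 and 17.8 FPKM in control MO (log2 fold change -0.94, SE 0.10, limma adjusted p = 4e-05). The main ferritin heavy chain gene fth1a had a log2 fold change of 0.44, which was -0.01 and not called under quantile normalization. tspo, a mitochondrial outer membrane protein, and hebp2, a heme-binding protein, fell by 0.91 and 0.89 on the log2 scale. gata1a, the erythroid master regulator, named after its values were seen, had 12.04, 13.2 and 12.3 FPKM with As2S2 and 10.6, 10.6 and 12.5 FPKM in sf3b1 MO, a rise of 0.37 that was no longer called without centring (0.15). The planned red cell markers had lower FPKM with As2S2. cahz had 12.9, 14.5 and 11.8 FPKM with As2S2 and 27.9, 29.1 and 29.0 FPKM in sf3b1 MO. rhag had 3.45, 3.25 and 3.36 against 7.68, 8.85 and 8.11 FPKM. slc4a1a had 3.71, 3.36 and 3.07 against 4.47, 4.11 and 4.38 FPKM. Over all genes tested, 46.9% had every As2S2 library below every sf3b1 MO library in FPKM. These FPKM are not centred, and without centring the median gene had a log2 fold change of -0.20. A fall in FPKM as small as that of slc4a1a may thus not be a fall relative to the median gene. Endothelial genes had 12 of 27 higher and 3 lower (6 higher and 9 lower without centring), with sox18, a vessel regulator, at 1.10, and their median of 0.16 was -0.07 without centring. Of 5 lymphocyte genes 3 were higher and 1 lower. pax5, a B cell factor that also patterns the midbrain, rose by 2.42.

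Genes of energy metabolism fell more often than they rose. Of 75 nuclear genes of oxidative phosphorylation 33 were lower and 2 higher, with a median of -0.19, against 0 higher and 64 lower without centring and 0 higher and 50 lower under quantile normalization. The ATP synthase subunit gene atp5meb fell to 6.11, 7.64 and 4.77 FPKM with As2S2, against 34.7, 38.1 and 39.0 FPKM in sf3b1 MO and 95.4, 106 and 104 FPKM in control MO (log2 fold change -2.21, SE 0.13, limma adjusted p = 6.5e-07). cycsb, a cytochrome c gene, fell by 0.93 on the log2 scale and atp5mc1 by 0.82. Among 13 mitochondrially encoded genes 8 were lower and 1 higher. mt-atp6 had 3769.9, 3879.7 and 3928 FPKM with As2S2 and 8627, 8476 and 9225 FPKM in sf3b1 MO. This was the largest fall in FPKM among called genes with a symbol. mt-atp8, mt-nd6 and mt-nd2 fell by 0.93, 0.91 and 0.69 on the log2 scale. The 1 that rose was mt-co1, with 16093, 15945 and 15812 FPKM with As2S2 and 13944, 13639 and 14637 FPKM in sf3b1 MO. mt-co3 fell by 0.18 on the log2 scale. Quantile normalization, which ties the top ranks, removed the calls of mt-co1 and mt-co3. Mitochondrial genes are transcribed together as long precursors, and mt-atp8 and mt-atp6 lie on 1 shared transcript.

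Sugar and lipid genes were divided. Of 37 glycolysis genes 18 were higher and 12 lower (8 higher and 18 lower without centring), with a median of 0.12 that was -0.11 without centring. egln3, an oxygen sensor that marks HIF for breakdown and is itself a HIF target in mammals, had 10.8, 9.43 and 10.9 FPKM with As2S2, 2.13, 1.62 and 0.801 FPKM in sf3b1 MO and 0.584, 0.797 and 0.720 FPKM in control MO (log2 fold change 2.44, SE 0.18, limma adjusted p = 3.3e-06). Of 32 cholesterol and fatty acid synthesis genes 18 were lower and 4 higher. hmgcs1, an early enzyme of the sterol pathway, had 5.50, 5.42 and 5.59 FPKM with As2S2 and 14.7, 14.5 and 13.9 FPKM in sf3b1 MO (log2 fold change -1.01, SE 0.05, limma adjusted p = 3.3e-07), the lipoprotein receptor gene ldlrb fell by 1.25 on the log2 scale and the desaturase gene scdb by 0.66. In fatty acid oxidation 18 of 32 were lower and 4 higher, with acadm, an enzyme of the mitochondrion, falling by 0.92 on the log2 scale and fabp3, a fatty acid carrier, rising by 1.09. Of 46 lysosome genes 23 were lower and 6 higher (1 higher and 32 lower without centring), and the members with the largest changes were subunits of the proton pump: atp6v1c1b, atp6v0a1a and atp6v1f fell by 0.99, 0.86 and 0.72 on the log2 scale.

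Of 37 clock genes 10 were higher and 13 lower, beside 30.2% and 27.4% of all genes, so the counts do not set the list apart. Single members changed more. nr1d1, a repressor of the clock, had 1.31, 0.997 and 0.960 FPKM with As2S2 and 9.53, 9.88 and 11.3 FPKM in sf3b1 MO (log2 fold change -2.20, SE 0.09, limma adjusted p = 1e-07). The light-induced genes per2, cry1a and cry-dash of zebrafish had log2 fold changes of -1.66, -1.27 and -2.03, and cry3a, the most abundant member, fell to 48.0, 46.2 and 44.9 FPKM with As2S2, against 112, 106 and 110.4 FPKM in sf3b1 MO. per1b, named after its values were seen, rose by 0.94. The labels give no hour of collection, so a difference in time of day and an effect of As2S2 cannot be told apart for these genes.

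A few of the largest changes fell outside every list. adgre10, by its name an adhesion receptor gene, had 59.9, 65.2 and 61.2 FPKM with As2S2, 3.04, 3.59 and 2.997 FPKM in sf3b1 MO and 1.61, 2.15 and 1.64 FPKM in control MO (log2 fold change 4.13, SE 0.09, limma adjusted p = 1.6e-09). serpini1, the protease inhibitor neuroserpin, rose by 3.24, and zgc:114046 and unm_sa38659, known by code names, by 3.64 and 3.13. Among falls, zgc:123181 had 0.704, 0.271 and 0.582 FPKM with As2S2 and 20.4, 31.0 and 10.6 FPKM in sf3b1 MO, where the 3 untreated libraries differed widely (SE of the log2 fold change 0.66, limma adjusted p = 0.0015). Named after their values were seen, pim2, a survival kinase gene, and mknk2b, a kinase of the cap-binding factor eIF4E, rose by 3.10 and 2.62, and rs1a, the retinal adhesion protein retinoschisin, fell by 2.05 on the log2 scale.

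**Figure D5:**
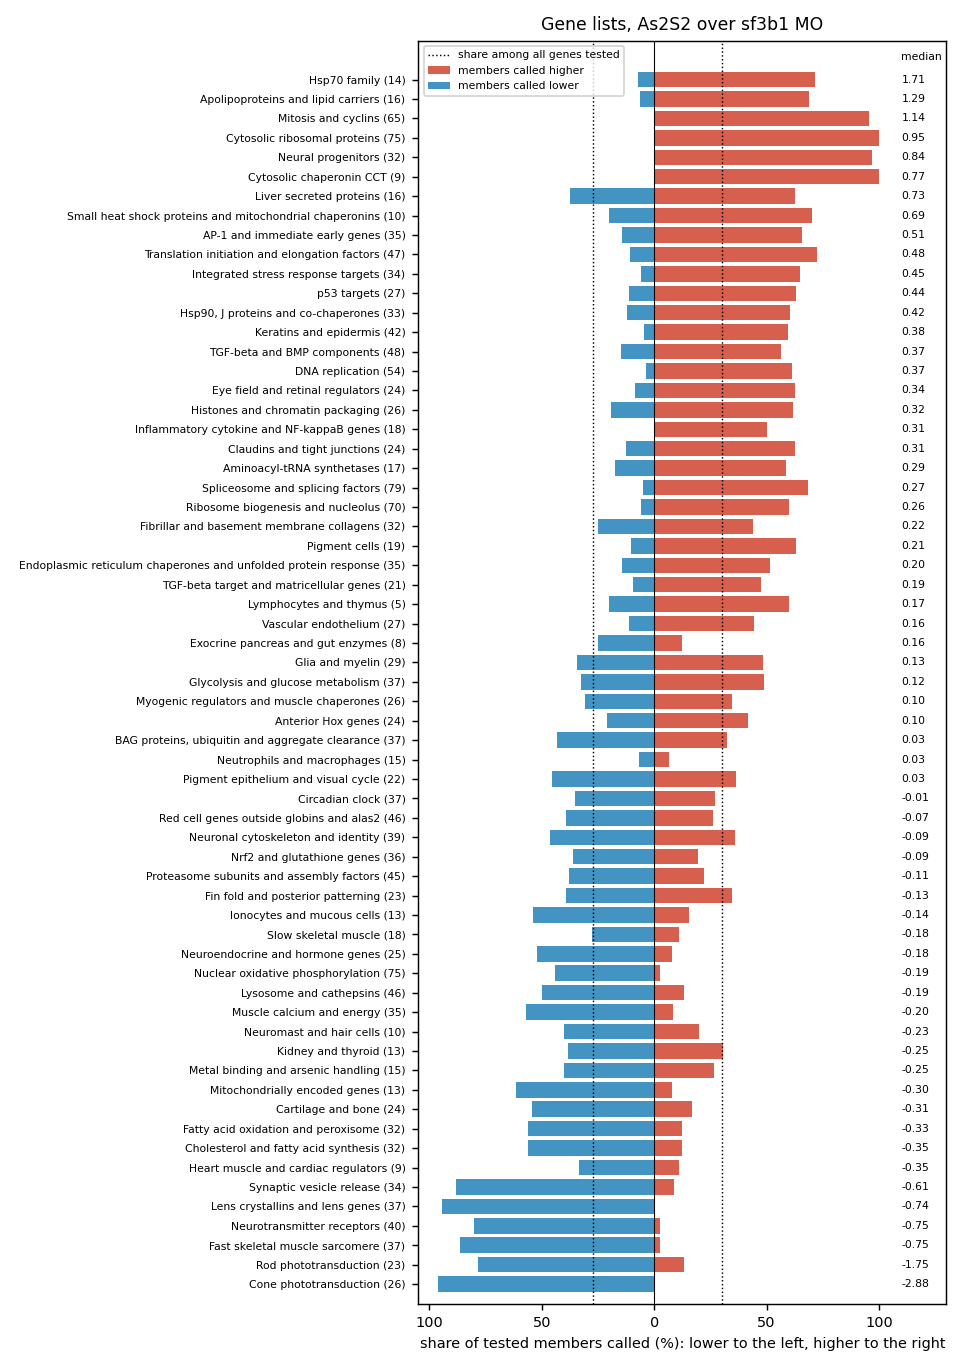
For each of the 63 gene lists (number of tested members in brackets), bars give the share of tested members called higher (red, to the right) and lower (blue, to the left) with As2S2, in percent, and the column at the right gives the median log2 fold change; dotted lines mark the shares among all 17997 genes, 30.2% higher and 27.4% lower. Lists run from the Hsp70 family at the top to cone phototransduction at the bottom.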

How the data were processed

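Per the labels' protocols, polyA RNA was selected from total RNA of zebrafish trunk tissue and sequenced. The deposited table holds FPKM for 9 libraries and, per the file headers, raw counts for control MO and sf3b1 MO only. The submitters' processing notes name fastp 0.22.0, DESeq2 and GRCz11; no source used here gives the aligner or counter. The authors' deposited table also has a log2 mean, and a log2 fold change and p-values for sf3b1 MO against control MO, which were not used.

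FPKM were taken as log2(FPKM + 1), each library was centred on its median, and all 9 libraries entered 1 limma 3.58.1 fit in R 4.3.3 (trend of variance on mean, two-sided, Benjamini-Hochberg over 17997 genes, adjusted p under 0.05). The fit was tested on simulated data. Of 18042 Ensembl IDs 17481 matched the name table, and 3067 assembled transcripts have none. Groups follow the labels. As2S2 depth could not be recovered from FPKM. In a check on the control MO and sf3b1 MO libraries, whose counts are known, 17.0% of 53 low values gave whole reads within 0.1.

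The comparison, its rows and the 63 gene lists were chosen with earlier results of these data known. Named genes were 15 rises and 15 falls, the largest of those called without overlap and with a mean of at least 5 FPKM, up to 4 called members per list with the largest change at that mean plus the most abundant member, the 5 largest gains and losses in FPKM, and genes whose call turns on 1 setting or library. Not every one is printed, and some are not reported here. Alternatives changed centring, pseudocount, filter, libraries, block and threshold.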

Additional observations from a re-analysis of the deposited data

How the results depend on the processing

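The counts of 5427 genes higher and 4926 lower moved by more than 1.5 times in 3 settings: without centring they were 3104 and 8017, with a mean of at least 5 FPKM over the 9 libraries 3226 and 3029 (9420 genes tested), and in limma's test against a 1.5-fold change 1016 and 833. The second and the third test fewer genes or ask for more by construction, and the cause of the first was not tested. Leaving out 1 library gave 5022 to 5094 genes higher and 4490 to 4658 lower. No pairing by replicate number was seen: deviations of libraries with the same number correlated between -0.07 and 0.04, against -0.09 to 0.10 for the others. A check on 3 libraries per group cannot show whether the numbers mark shared clutches or batches. With the replicate block 5299 genes were higher and 4800 lower. Of the named genes, ddit3 turned to -0.0303 without centring, and fth1a and hspa8 turned to -0.0119 and -0.144 under quantile normalization. Calls made in both fits kept their sign in 8030 of 8061 genes without centring and in 9864 of 9876 under quantile normalization. Depth is unknown for As2S2, so no limit of detection is given for genes listed near 0. The planned description of promoter motifs was not run.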

Other observations

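Rows outside the comparison held 386 genes or transcripts with values in the As2S2 libraries only. Their median was 1.01 FPKM, 34 of them averaged at least 5 FPKM, and 8 had symbols of replication histones. hist2h3c, a histone H3 gene, stood at 37.0, 36.3 and 35.5 FPKM in the As2S2 libraries and had no value in sf3b1 MO or control MO. A further 963 rows had no As2S2 values, with a median of 0.413 FPKM in sf3b1 MO, and 7 of them averaged at least 5 FPKM there. Since an empty cell is not a measured 0, these rows give no difference between groups.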
